A study of Mus musculus with 5 samples.

Results

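The genes described here were 46 genes of DNA replication and mismatch repair, chosen by name from the 49671 genes of the count table. All 46 names were present, each had at least 18 counts in every embryo, and all 46 passed the filter on low counts. RNA was sequenced from single mouse embryos at about E6.75. The 2 SO+ embryos were Sox2Cre-/-; Oct4 fl/+ and the 3 SO− embryos were Sox2Cre+/-; Oct4 fl/-, all on a mixed strain background. Every embryo therefore had a floxed Oct4 allele, but the SO+ embryos had no Cre and an intact second allele, so that the Cre transgene, the null allele and the loss of Oct4 cannot be told apart. Sox2Cre is active mainly in the epiblast, and the tissue sequenced was epiblast plus visceral endoderm (VE), after removal of the extra-embryonic ectoderm (ExE). The question addressed was whether the RNA of the replication machinery differed between embryos with and without Oct4, and which of its complexes differed together.

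Replication starts at origins that are bound by the origin recognition complex, on which CDC6 and CDT1 load the MCM2-7 helicase in G1 phase. In S phase the DDK kinase and the CDC45 and GINS proteins turn the loaded helicase into an active fork, where DNA polymerases alpha, delta and epsilon copy the strands, PCNA holds the polymerases on the template and RPA covers single-stranded DNA. Mismatch repair follows the fork and corrects bases that the polymerases placed wrongly. The epiblast at this stage is known for some of the shortest cell cycles of the embryo. Many genes of this machinery are known targets of E2F transcription factors, which drive entry into S phase.

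Counts summed to between 27047148 and 27538119 in the SO+ libraries and between 1117566 and 4191498 in the SO− libraries, which were on average 8.67 times smaller. In the smallest, SO− embryo 2, 3 counts correspond to 2.68 CPM (counts scaled to a library of 1e6 with edgeR's TMM factors). Both SO+ libraries shared 1 second index and all SO− libraries another, which cannot be told apart from genotype. Pou5f1, the gene of Oct4, fell by 4.43 on the log2 scale (SE 0.33, adjusted p = 3.94e-05 from edgeR), from 919.5 and 437 CPM (SO+) to 28.0, 12.5 and 44.1 CPM (SO−). Summed over 11 markers, the epiblast reached 6736 and 5493 CPM (SO+) and 2998, 2599 and 3738 CPM (SO−), a sum to which Dnmt3b gave 3980 CPM in SO+ embryo 1. Of the 11, 8 had a log2 fold change below 0, and Pou5f1, Dnmt3b, Utf1 and L1td1 passed the test as lower. Sox2, Fgf5 and Nanog were at 145%, 129% and 102% of the SO+ mean, without passing it. All 13 VE markers were detected, 11 of them with a log2 fold change above 0 and none with an adjusted p under 0.05 in edgeR (0 in DESeq2, 4 higher at an unadjusted p under 0.05), and their sum was 2836 and 3129 CPM (SO+) and 4284, 4241 and 2667 CPM in SO− embryos 1, 2 and 3. The 11 ExE markers summed to between 53.8 and 72.3 CPM in each embryo. The 8 markers of maternal decidua and blood summed to at most 4.94 CPM, and Ptprc, Tyrobp, Prl8a2 and Hbb-bs had no counts in any embryo.

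The RNA of the replication genes was slightly lower in SO− embryos across most complexes, and only Msh6 passed the test over all genes. Of the 46 genes, 40 had a log2 fold change (SO− over SO+) below 0, beside 6070 of all 12067 genes tested (50.3%). The 6 above 0 were Orc4, Gins3, Cdc7, Rfc3, Pold3 and Lig1. In 22 genes, or 47.8%, every SO− embryo was lower than both SO+ embryos, which held for 15.1% of all genes tested. The opposite, every SO− embryo above both SO+ embryos, was found for 2 of the 46, or 4.35%, beside 14.2% of all genes tested. The median log2 fold change was −0.13 over the 46 genes and −0.0019 over all genes tested. Over the 46 genes the 2 SO+ embryos differed from each other by a median of 0.16 on the log2 scale. In 29 of the 46 the log2 fold change was larger in size than that gene's own gap between the SO+ embryos. These are descriptions of the list, to which no test was applied, and the 46 genes had smaller standard errors than most genes, with a median of 0.12 beside 0.23 over all genes tested.

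The differences were small for each gene. Log2 fold changes ranged from −0.50 for Msh6 to 0.20 for Orc4 and Pold3, and 22 of the 46 were closer to 0 than 0.15. Each gene's 95% interval lay between −0.83 and 0.58, so that no interval reached a 2-fold difference, or 1 on the log2 scale, in either direction. In edgeR's quasi-likelihood test 1 of the 46 genes, or 2.17%, had an adjusted p under 0.05, beside 2.35% of all genes tested (0.928% lower and 1.42% higher), a share near that of the background. At an unadjusted p under 0.05 the number was 12 of 46, or 26.1%, all lower, beside 6.46% of all genes that were lower at that p and 7.27% that were higher. The 12 were Orc2, Cdc6, Mcm2, Mcm3, Mcm4, Mcm5, Pold1, Pold2, Pole, Rpa1, Rpa2 and Msh6, and without Msh6 their adjusted p from edgeR ran from 0.0980 to 0.363. In DESeq2, Mcm2 passed as well (adjusted p = 0.0477), and in limma-voom none of the 46 did.

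**Figure D1:**
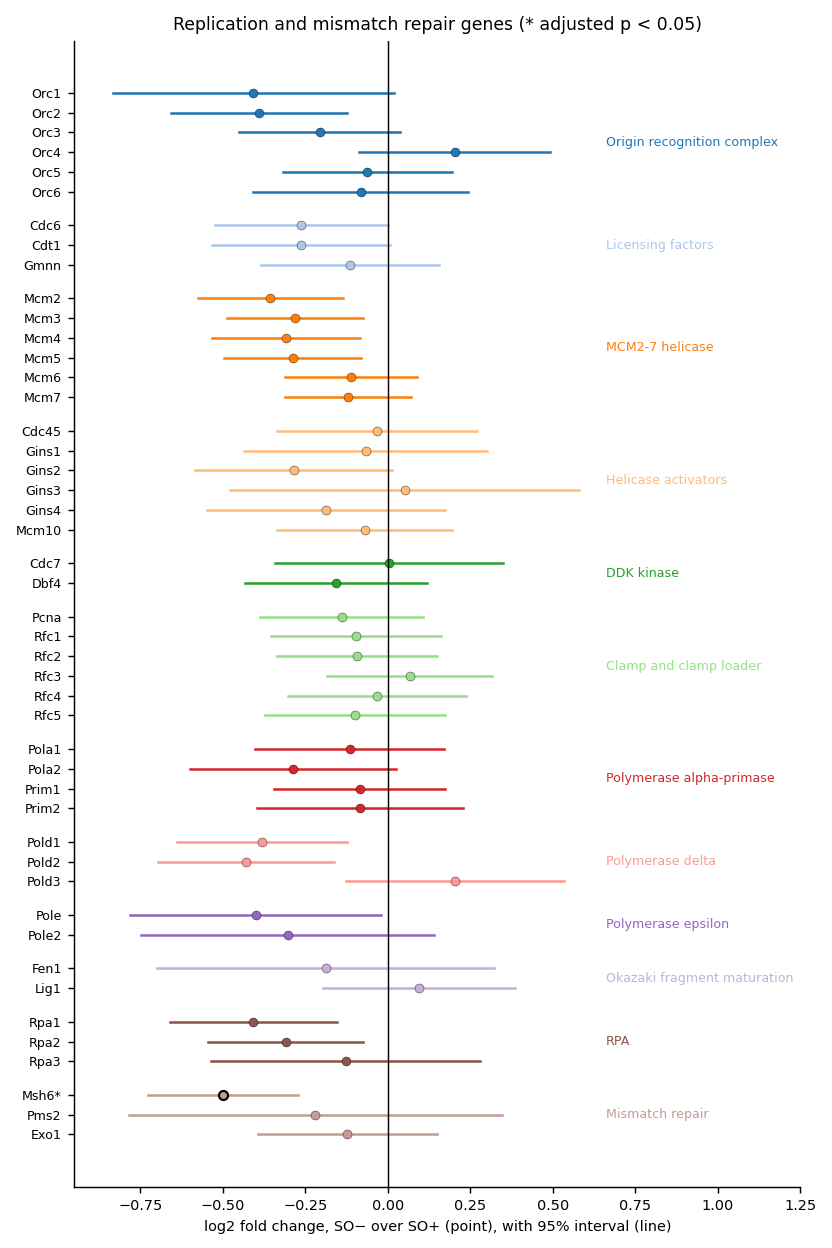
Log2 fold change (SO− over SO+) of each of the 46 genes with its 95% interval from edgeR, grouped by role. Of the 46 points, 40 lie below 0, from −0.50 for Msh6 upward, and no interval reaches −1 or 1.

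Summed over the 46 genes, the level was 9334 and 9100 CPM (SO+) and 7987, 7687 and 8344 CPM in SO− embryos 1, 2 and 3. All SO− embryos were below both SO+ embryos, at 86.7%, 83.4% and 90.5% of the SO+ mean. SO− embryo 2, which had the smallest library, was lowest in the sum. The 2 embryos with the highest VE marker sums, SO− 1 and 2, were thus also the 2 with the lowest sum, while SO− embryo 3, whose VE sum was below both SO+ embryos, had a sum between theirs and that of the SO+ embryos. With SO− embryos 1 and 2 left out, an alternative chosen after the marker sums were seen that leaves 1 SO− embryo, 34 of the 46 genes were below 0 and their median was −0.11, values that rest on a single SO− embryo. The part of VE or epiblast content in the differences was not tested. In RNA from whole tissue, fewer cells that replicate DNA and less RNA per cell cannot be told apart.

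Promoter sequence is shown for 6 genes that were picked after their values and windows were seen: Msh6, Mcm2, Pold2 and Rpa1, which were lower in all SO− embryos with the lowest log2 fold change of their complex, and Mcm5 and Mcm6, whose windows hold several E2F matches. RefSeq windows on GRCm38.p6 reach from 250 bases before to 50 bases after a gene's start, and 37 of the 46 genes had at least 1 window, 46 windows in all. Genes without one were Mcm4, Gmnn, Gins1, Gins2, Gins4, Rfc2, Pole, Prim2 and Exo1. Both strands were searched for the E2F letters TTTCCCGC, TTTGGCGC, TTTCGCGC and TTTGCCGC, for CCAAT, which NF-Y binds, and for the octamer ATGCAAAT, which POU factors such as Oct4 bind. E2F letters on opposite strands can overlap each other, as they do in Mcm5 and Mcm6, and none of the E2F letters contains CCAAT. The 250 bases before the start are given 5′ to 3′ on the gene's strand, with the matched letters in capitals.
Msh6: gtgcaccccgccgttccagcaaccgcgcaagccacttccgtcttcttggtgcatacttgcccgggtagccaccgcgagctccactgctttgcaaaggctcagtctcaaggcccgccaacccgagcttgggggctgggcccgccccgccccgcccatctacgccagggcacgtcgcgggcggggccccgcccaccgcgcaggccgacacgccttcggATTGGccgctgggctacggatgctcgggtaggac
Mcm2: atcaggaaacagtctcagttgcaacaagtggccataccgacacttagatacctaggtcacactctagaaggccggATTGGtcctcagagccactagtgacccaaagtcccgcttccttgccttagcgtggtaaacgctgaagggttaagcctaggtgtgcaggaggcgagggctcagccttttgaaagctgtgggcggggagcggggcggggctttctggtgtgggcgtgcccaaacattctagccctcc
Mcm5: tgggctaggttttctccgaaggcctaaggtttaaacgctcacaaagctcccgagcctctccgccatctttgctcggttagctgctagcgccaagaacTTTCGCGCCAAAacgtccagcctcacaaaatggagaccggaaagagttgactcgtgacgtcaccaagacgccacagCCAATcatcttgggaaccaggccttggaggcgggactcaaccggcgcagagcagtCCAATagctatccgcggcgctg
Mcm6: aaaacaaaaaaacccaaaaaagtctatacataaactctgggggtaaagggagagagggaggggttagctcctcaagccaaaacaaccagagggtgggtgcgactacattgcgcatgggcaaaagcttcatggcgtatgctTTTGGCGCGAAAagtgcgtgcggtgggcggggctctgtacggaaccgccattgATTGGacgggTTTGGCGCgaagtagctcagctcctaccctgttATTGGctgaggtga
Pold2: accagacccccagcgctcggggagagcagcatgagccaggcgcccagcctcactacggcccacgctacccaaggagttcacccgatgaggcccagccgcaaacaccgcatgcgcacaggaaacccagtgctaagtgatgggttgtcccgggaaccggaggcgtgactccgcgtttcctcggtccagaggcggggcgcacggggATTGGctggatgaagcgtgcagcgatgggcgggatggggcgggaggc
Rpa1: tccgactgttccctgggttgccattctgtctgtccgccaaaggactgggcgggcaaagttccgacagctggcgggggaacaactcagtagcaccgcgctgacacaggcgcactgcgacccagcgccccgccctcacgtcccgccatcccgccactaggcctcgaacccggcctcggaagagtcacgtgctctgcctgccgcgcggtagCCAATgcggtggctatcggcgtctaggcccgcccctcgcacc
The stretches lie at chr17:87974800-87975049 on the plus strand for Msh6, chr6:88898781-88899030 on the minus strand for Mcm2, chr8:75109259-75109508 on the plus strand for Mcm5, chr1:128359706-128359955 on the minus strand for Mcm6, chr11:5878257-5878506 on the minus strand for Pold2 and chr11:75348384-75348633 on the minus strand for Rpa1. Msh6 has a CCAAT match on the opposite strand, which begins 34 bases before the start, and TTTCCCGC from the 16th base after the start, outside the stretch shown. In Mcm5 a pair of overlapping E2F matches begins 153 bases before the start, and in Mcm6 a like pair begins 110 bases before it and a further E2F match 47 bases before it. The stretches shown for Mcm2, Pold2 and Rpa1 hold CCAAT without E2F letters, and a second window of Pold2 holds neither.

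E2F letters were found in 16 of the 46 windows, or 34.8%, beside 2.26% of all 32851 windows of 27025 genes. CCAAT was found in 25 windows, or 54.3%, beside 37.4% of all windows. The octamer was in none of the 46 and in 1.74% of all windows, which says only that these letters are not in the windows. The windows were richer in G and C than most, with a median of 61.8% beside 52.7%. The 5 MCM2-7 genes with windows had E2F letters in 4 of their 6 windows and CCAAT in all 6. Of the 37 genes with a window, 16 had E2F letters and a median log2 fold change of −0.23, with 12 of them below 0 and 9 lower in all SO− embryos than in both SO+ embryos. The other 21 had a median of −0.13, with 19 below 0 and 7 lower in all SO− embryos. The medians and the counts below 0 thus ran in opposite directions. These are descriptions, and no test was made between the 16 and the 21.

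The MCM2-7 helicase, the ring that unwinds DNA at the fork, was the only one of the 12 groups in which all genes, here 6 of 6, were lower in every SO− embryo than in either SO+ embryo. None passed in edgeR, 4 had an unadjusted p under 0.05, and 1, Mcm2, passed in DESeq2. Mcm2 had 846 and 745 CPM (SO+) against 598, 593 and 671 CPM (SO−), a log2 fold change of −0.36 (SE 0.10, adjusted p = 0.0980 from edgeR). Mcm3 had 519 and 494 CPM (SO+) against 418, 403 and 426 CPM (SO−). Mcm4 had 415 and 473 CPM (SO+) against 351, 344 and 379 CPM (SO−). These 3 subunits were at 78.0%, 82.1% and 80.6% of the SO+ mean, and the highest SO− embryo was the third for each of them. Mcm5 had 749.8 and 666 CPM (SO+) against 559.6, 595 and 586 CPM (SO−), so that the third embryo was not the highest. Mcm6 had 616 and 589 CPM (SO+) against 551, 552 and 568 CPM (SO−), and Mcm7 had 875 and 841 CPM (SO+) against 801, 769 and 797 CPM (SO−). Log2 fold changes were between −0.36 and −0.28 for Mcm2, Mcm3, Mcm4 and Mcm5 (adjusted p from 0.0980 to 0.183 in edgeR) and −0.11 and −0.12 for Mcm6 and Mcm7 (adjusted p = 0.677 and 0.633 in edgeR), but the difference between these subunits was not tested. Mcm7 shares its locus with Cops6 on the opposite strand, and since the use of strand in counting was not given, reads of the 2 genes may be divided. Summed over the helicase, the level was 4021 and 3809 CPM (SO+) and 3278, 3258 and 3427 CPM (SO−), or 83.7%, 83.2% and 87.5% of the SO+ mean.

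**Figure D2:**
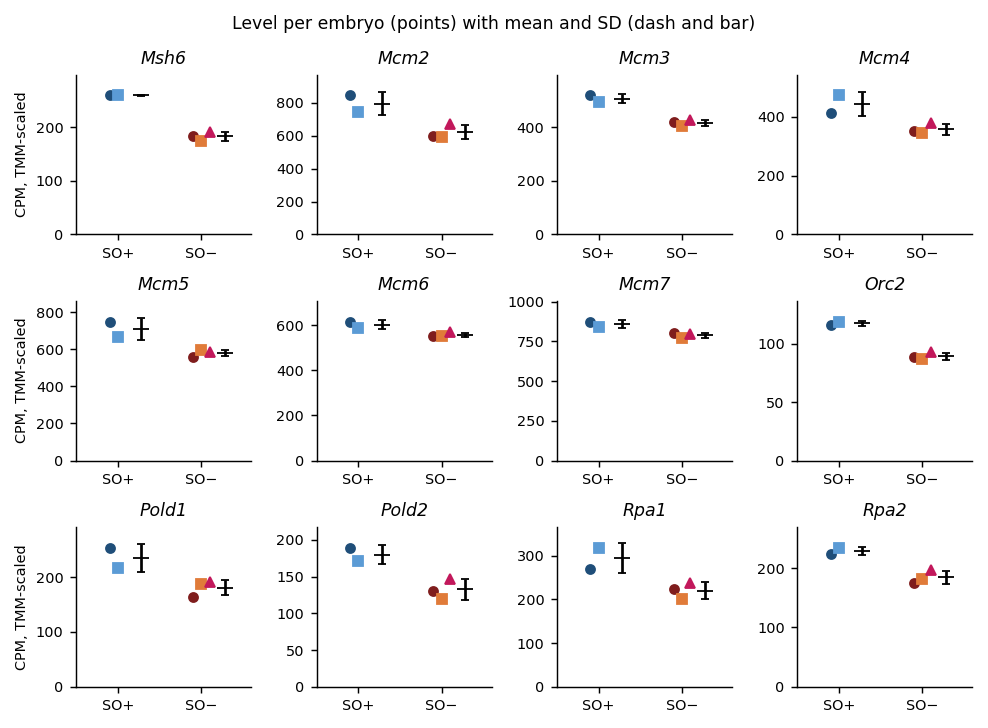
TMM-scaled CPM of 12 genes in each embryo, with 1 symbol per embryo, and the mean and SD beside each group. The genes are Msh6, the 6 MCM2-7 subunits and 5 others with an unadjusted p under 0.05, and in each panel all SO− points lie below both SO+ points. The 12 were picked from the 22 of the 46 genes that separate in this way.

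In mismatch repair, Msh6 fell. It encodes a subunit of the complex that recognises single mismatched bases, and it lies at chr17:87975062-87990892 on the plus strand of GRCm38, on the same chromosome as Pou5f1 and 52.5 Mb from it. Msh6 (ENSMUSG00000005370) had 7142 and 6977 counts in SO+ embryos and 753, 195 and 789 counts in SO− embryos, or 259 and 259 CPM and 183, 174 and 190.3 CPM. The SO+ values were nearly equal, and the SO− values lay well below them and close to each other, at 70.5% of the SO+ mean. Its log2 fold change was −0.50 (SE 0.10, adjusted p = 0.0256 from edgeR), with a 95% interval of −0.73 to −0.27. It stayed between −0.54 and −0.45 under 17 other settings, but its adjusted p was above 0.05 in 6 of them: 0.0589 in limma-voom, 0.0841 in edgeR without SO+ embryo 1, 0.205, 0.168 and 0.0517 without SO− embryo 1, 2 or 3, and 0.670 with SO− embryos 1 and 2 both left out. Fbxo11 overlaps Msh6 on the opposite strand and had 1085 counts in all embryos together, beside 15856 for Msh6. Pms2, whose product cuts the strand that carries the error, had 31.8 and 43.1 CPM (SO+) against 38.98, 17.0 and 35.0 CPM (SO−), and its lowest value rested on 19 counts in SO− embryo 2. The groups overlapped, and the log2 fold change was −0.22 (SE 0.26, adjusted p = 0.805 from edgeR). Exo1, the exonuclease that removes the cut strand, had 105 and 119 CPM (SO+) against 106, 99.95 and 101 CPM (SO−), which overlapped as well, with a log2 fold change of −0.12 (SE 0.13, adjusted p = 0.763 from edgeR).

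RPA, the complex of 3 proteins that coats single-stranded DNA, had 2 of its 3 subunits lower in every SO− embryo than in either SO+ embryo, without passing the test. Rpa1, its large DNA-binding subunit, had 269.8 and 318 CPM (SO+) against 225, 199.9 and 237 CPM (SO−), a log2 fold change of −0.41 (SE 0.12, adjusted p = 0.102 from edgeR). Rpa2, the subunit that is phosphorylated in the cell cycle and after DNA damage, had 225 and 234 CPM (SO+) against 175, 182 and 197 CPM (SO−), a log2 fold change of −0.31 (SE 0.11, adjusted p = 0.20 from edgeR). In both genes the groups did not overlap, with a mean at 75.0% and 80.6% of that of SO+ embryos. Rpa3, the smallest subunit, had 40.2 and 35.1 CPM (SO+) against 34.3, 29.4 and 37.9 CPM (SO−), and its groups overlapped (log2 fold change −0.13, SE 0.19, adjusted p = 0.861 from edgeR).

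Among the replicative polymerases, the catalytic subunits of delta and epsilon and the second subunit of delta were lower in all SO− embryos. Pold1, the catalytic subunit of polymerase delta, which copies mainly the lagging strand, had 254 and 216 CPM (SO+) against 165, 187 and 191 CPM (SO−). Pold2, its second subunit, had 189 and 171 CPM (SO+) against 131, 119.6 and 147 CPM (SO−). Their log2 fold changes were −0.38 (SE 0.12, adjusted p = 0.144 from edgeR) and −0.43 (SE 0.12, adjusted p = 0.102 from edgeR), and the groups did not overlap. Pold3, one of the subunits through which the enzyme contacts PCNA, had 129 and 93.5 CPM (SO+) against 121, 120.5 and 141 CPM (SO−), and was thus on average higher, with overlapping groups (log2 fold change 0.20, SE 0.15, adjusted p = 0.642 from edgeR). Pole, the catalytic subunit of polymerase epsilon, which copies mainly the leading strand, had 73.6 and 54.2 CPM (SO+) against 48.7, 42.8 and 51.6 CPM (SO−), a log2 fold change of −0.40 (SE 0.18, adjusted p = 0.328 from edgeR). Its SO+ embryos differed from each other by 0.44 on the log2 scale, more than the mean difference between genotypes, and SO+ embryo 2 was only slightly above the highest SO− embryo. Pole2, the second subunit of epsilon, had 42.3 and 35.2 CPM (SO+) against 27.5, 27.7 and 37.6 CPM (SO−), with overlapping groups (log2 fold change −0.30, SE 0.21, adjusted p = 0.590 from edgeR).

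Polymerase alpha and primase start each new strand with a short primer. Pola2, the second subunit of alpha, had 97.0 and 90.5 CPM (SO+) against 67.7, 86.6 and 79.1 CPM (SO−), a log2 fold change of −0.29 (SE 0.14, adjusted p = 0.411 from edgeR), and SO− embryo 1 was the lowest. Prim1, the catalytic subunit of primase, had 114.3 and 118.6 CPM (SO+) against 109.9, 104.4 and 113.6 CPM (SO−), and Prim2, its partner, had 61.0 and 61.9 CPM (SO+) against 58.7, 57.1 and 57.9 CPM (SO−). These 3 genes did not overlap between genotypes, but Prim1 and Prim2 were at 93.8% and 94.2% of the SO+ mean, with log2 fold changes of −0.09 (SE 0.12, adjusted p = 0.847) and −0.08 (SE 0.14, adjusted p = 0.885) from edgeR. Pola1, the polymerase subunit itself, overlapped, with a log2 fold change of −0.12 (SE 0.13, adjusted p = 0.798 from edgeR).

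In the origin recognition complex, 5 of 6 subunits had a log2 fold change below 0. Orc2 had 116 and 119 CPM (SO+) against 88.2, 86.6 and 92.6 CPM (SO−), a log2 fold change of −0.39 (SE 0.12, adjusted p = 0.147 from edgeR), and its groups were far apart compared with the spread within each. Nif3l1 overlaps Orc2 on the opposite strand with a like number of counts (7764 beside 7229), so the value of Orc2 is uncertain if strand was not used. Orc3 had 184 and 189 CPM (SO+) against 173, 156 and 154 CPM (SO−), with no overlap and a log2 fold change of −0.21 (SE 0.11, adjusted p = 0.462 from edgeR). Orc1, the subunit whose protein is removed from chromatin after origins have fired, had 49.1 and 66.2 CPM (SO+) against 35.3, 46.4 and 49.7 CPM (SO−), which overlapped at SO− embryo 3 and SO+ embryo 1 (log2 fold change −0.41, SE 0.20, adjusted p = 0.394 from edgeR). Orc4 differed in the other direction, with 75.2 and 86.3 CPM (SO+) against 93.3, 92.8 and 92.8 CPM (SO−), so that the SO− embryos were nearly equal and all above SO+ embryos (log2 fold change 0.20, SE 0.13, adjusted p = 0.575 from edgeR). It also overlaps genes on the opposite strand, Acvr2a with 1282 and Mbd5 with 349 counts beside its 5271. Orc5 and Orc6 overlapped between genotypes, with log2 fold changes of −0.06 and −0.08 (adjusted p = 0.901 and 0.895 from edgeR).

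The licensing factors Cdc6 and Cdt1, which load the helicase, were at 83.7% and 83.2% of the SO+ mean. Cdc6 had 139 and 153 CPM (SO+) against 113, 128 and 127 CPM (SO−), and Cdt1 had 180.2 and 153 CPM (SO+) against 129.8, 137 and 150.0 CPM (SO−). The groups did not overlap in either gene, but the highest SO− embryo was close to the lowest SO+ embryo for Cdt1, and the log2 fold changes were −0.26 (SE 0.12, adjusted p = 0.363) and −0.26 (SE 0.12, adjusted p = 0.378) from edgeR. Gmnn, whose product geminin inhibits CDT1, overlapped between genotypes (log2 fold change −0.12, SE 0.12, adjusted p = 0.778 from edgeR).

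Activators of the helicase differed little. Gins2, a subunit of the GINS complex, had 99.4 and 104 CPM (SO+) against 91.8, 72.3 and 83.4 CPM (SO−), a log2 fold change of −0.29 (SE 0.14, adjusted p = 0.394 from edgeR), and Gins1, another subunit, had 41.9 and 40.8 CPM (SO+) against 40.2, 40.2 and 38.3 CPM (SO−), a log2 fold change of −0.07 (SE 0.17, adjusted p = 0.932 from edgeR). Both were lower in all SO− embryos, although all values of Gins1 lay close together. The remaining GINS subunits had overlapping groups, with Gins4 at −0.19 and Gins3 at 0.05 (adjusted p = 0.712 and 0.966 from edgeR). Cdc45, the partner of GINS in the active helicase, and Mcm10, which acts when the helicase is activated, were at −0.03 and −0.07, also with overlap (adjusted p = 0.962 and 0.887 from edgeR). Of the DDK kinase, which phosphorylates the MCM ring, Dbf4, the regulatory subunit, had 139 and 124 CPM (SO+) against 111, 111 and 129.7 CPM (SO−), with overlap at SO− embryo 3 (log2 fold change −0.16, SE 0.13, adjusted p = 0.675 from edgeR), and Cdc7, the catalytic subunit, was at 0.00 (SE 0.16, 95% interval −0.34 to 0.35).

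For the sliding clamp and its loader, Pcna, the clamp itself, had 401 and 464 CPM (SO+) against 438, 366 and 372 CPM (SO−), with overlapping groups and a log2 fold change of −0.14 (SE 0.11, adjusted p = 0.677 from edgeR). The pseudogene Pcna-ps2, with 6022 counts beside 27309 for Pcna, can take reads from it. Rfc2, a subunit of the clamp loader, had 185.7 and 183.3 CPM (SO+) against 174.7, 158.8 and 182.5 CPM (SO−), and Rfc3, another, had 128 and 129 CPM (SO+) against 135, 140.1 and 130.2 CPM (SO−). The SO− embryos were all below the SO+ embryos for Rfc2 and all above them for Rfc3, by small amounts (log2 fold changes −0.09 and 0.07, adjusted p = 0.811 and 0.887 from edgeR). The other loader subunits, Rfc1, Rfc4 and Rfc5, had overlapping groups and log2 fold changes of −0.10, −0.03 and −0.10. Of the enzymes that finish Okazaki fragments, Fen1, which removes the flap, had 21.8 and 25.5 CPM (SO+) against 24.6, 16.1 and 19.8 CPM (SO−), and Lig1, which seals the nick, had 227 and 211 CPM (SO+) against 238, 188 and 267 CPM (SO−). SO− embryo 2 was lowest in both genes and the groups overlapped, with log2 fold changes of −0.19 (SE 0.24, adjusted p = 0.820) and 0.09 (SE 0.13, adjusted p = 0.852) from edgeR. Tmem258 overlaps Fen1 on the opposite strand with 6428 counts beside 1489, and Orc6, Cdc45, Gins2, Rfc4 and Rfc5 likewise have a gene on the opposite strand with over 5% of their own counts.

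Of the 12 complexes and groups, 9 had a summed level that was lower in every SO− embryo than in either SO+ embryo, and all 12 had a negative median log2 fold change. The 3 that overlapped were the DDK kinase, the clamp with its loader and the Okazaki enzymes. Sums of several lists of other genes of the pathway, given below, were lower in the same way. In polymerases delta and epsilon the separation was slight, with 479 CPM in SO− embryo 3 beside 481 CPM in SO+ embryo 2 for delta, and 89.2 CPM beside 89.4 CPM for epsilon, and their mean log2 ratios per gene overlapped between genotypes. Polymerase epsilon was summed over Pole and Pole2 alone. Its further subunits Pole3 and Pole4, listed with other fork and origin genes, were at 113.6% and 111.0% of the SO+ mean, with overlapping groups. Their log2 fold changes were 0.20 and 0.15 (adjusted p = 0.603 and 0.752 from edgeR). The means of the SO− embryos were 76.6% of the SO+ mean for polymerase epsilon, 77.2% for mismatch repair, 78.3% for RPA, 83.8% for polymerase delta and 84.8% for MCM2-7. Licensing factors were at 86.0%, the origin recognition complex at 89.9%, polymerase alpha with primase at 90.5%, the helicase activators at 91.4%, the DDK kinase at 93.3% and the clamp with its loader at 93.8%. The Okazaki enzymes were at 103.6%, above the SO+ mean although their median log2 fold change was −0.05, with Fen1 below 0 and Lig1 above it. The sum of mismatch repair was mostly that of Msh6, which gave 259 and 259 of 396 and 421 CPM in SO+ embryos. Pms2 and Exo1 each overlapped between genotypes, so that this group's low value does not show its genes moving together. The place of polymerase epsilon in this order rested on SO+ embryo 1, without which its summed level had a log2 ratio of −0.18 in place of −0.38, against −0.56 without SO+ embryo 2. Polymerase delta likewise had −0.12 without SO+ embryo 1 and −0.38 without SO+ embryo 2. The MCM2-7 helicase, by contrast, kept a log2 ratio between −0.28 and −0.20 with each embryo left out. Against the SO+ mean, the mean log2 ratio of MCM2-7 was −0.27, −0.27 and −0.20 in SO− embryos 1, 2 and 3, that of RPA was −0.30, −0.41 and −0.17, and the median over all genes was within 0.02 of 0 in each embryo. That of the Okazaki enzymes was 0.09, −0.38 and 0.02.

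**Figure D3:**
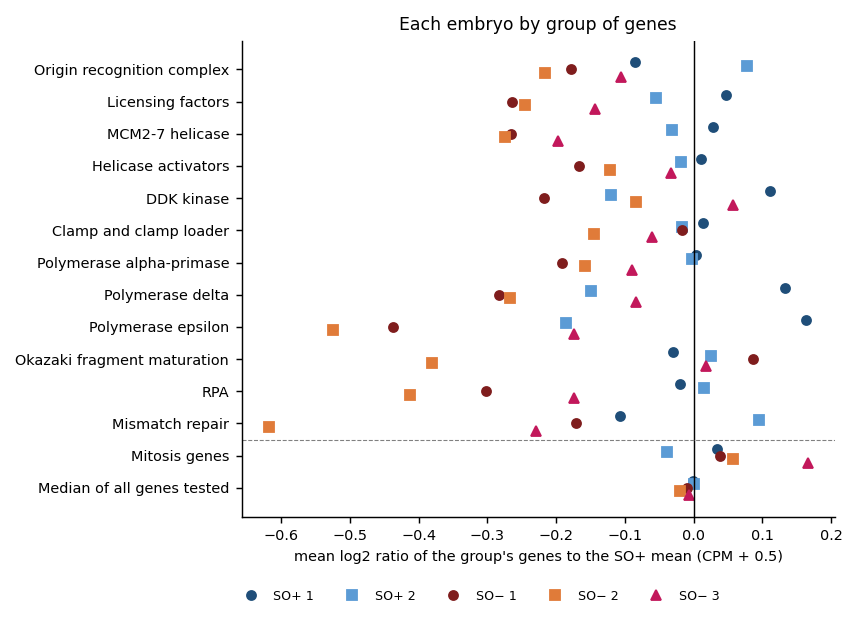
Mean log2 ratio of each complex or group to the SO+ mean in each of the 5 embryos, on CPM with 0.5 added, with 1 symbol per embryo and, under the dashed line, the mitosis genes and the median of all genes tested. SO− points lie below both SO+ points for MCM2-7, RPA and the licensing factors, among others, while those of the Okazaki enzymes spread from −0.38 to 0.09.

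Levels of different genes were compared as FPKM, the CPM divided by the length of the gene's exons in kilobases, which is the only scale here on which genes can be set side by side. In SO+ embryos 7 of the 46 genes were above 100 FPKM, namely Pcna and the 6 MCM2-7 subunits. Mcm7 was highest with 194 ± 5.41 FPKM (SD, n = 2), followed by Pcna with 180.3 ± 18.6 and Mcm5 with 177 ± 14.8 FPKM, and neighbours in this order differed by less than the larger SD. The 6 helicase subunits, which stand in equal number in the ring, differed 1.70-fold in FPKM from lowest to highest in SO+ embryos and 2.00-fold in SO− embryos, with Mcm2 lowest in both (114 ± 10.2 and 89.2 ± 6.24 FPKM). Mcm2 also had the largest exon length of the 6, and by mean CPM only Mcm7 was above it in either genotype. The 6 subunits of the origin recognition complex differed more, 4.30-fold in SO+ and 3.46-fold in SO− embryos. These FPKM ranks and fold ranges depend on the exon lengths used, and other lengths were not tested. Msh6 had 59.6 ± 0.0309 FPKM in SO+ and 42.0 ± 1.88 FPKM in SO− embryos (SD, n = 2 and 3). At the low end, 4 genes were below 10 FPKM in SO+ embryos, Fen1, Gins3, Pole and Pms2, the last with 4.61 ± 0.982 FPKM. The median over the 46 genes was 30.2 FPKM in SO+ and 27.5 FPKM in SO− embryos.

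**Figure D4:**
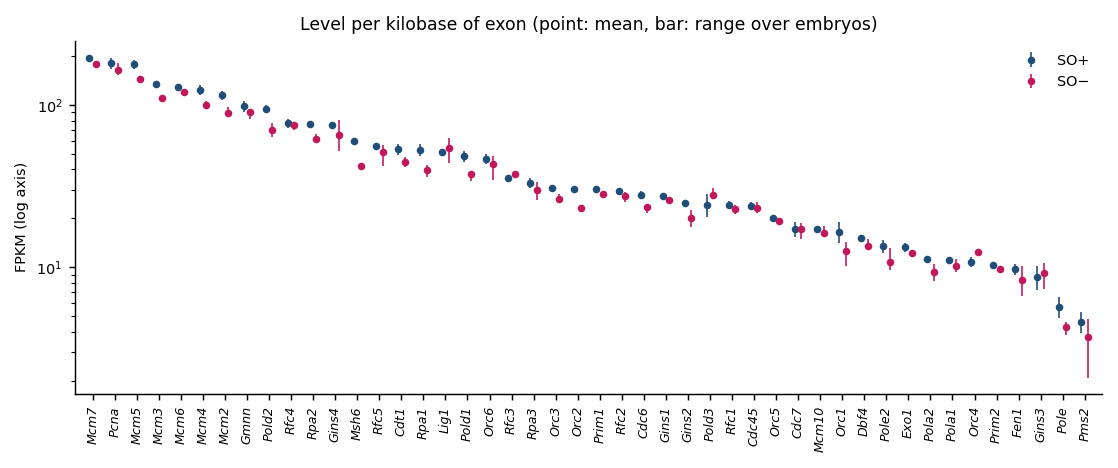
FPKM of the 46 genes (log axis) in SO+ and SO− embryos in the order of the SO+ level, with the mean as a point and the range over embryos as a bar. Mcm7, Pcna and the other MCM2-7 subunits stand at the top and Pms2 at the bottom.

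Other genes of the pathway, from lists that share no gene with the 46, are given beside them. In edgeR none of the 83 genes tested in these 6 lists passed at an adjusted p under 0.05, 1 (Dut, lower) passed in DESeq2, and 6 lower (7.23%) and 4 higher (4.82%) had an unadjusted p under 0.05, beside 6.46% and 7.27% of all genes tested. Nucleotide supply, a list of enzymes of nucleotide and folate metabolism, had 11 of 12 genes below 0, a median log2 fold change of −0.14 and 6 genes lower in all SO− embryos, beside 15.1% of all genes tested. In 1, Rrm1, a subunit of ribonucleotide reductase, all SO− embryos were higher, with 401 and 367 CPM (SO+) against 416, 481 and 446 CPM (SO−) (log2 fold change 0.22, SE 0.10, adjusted p = 0.393 from edgeR). The smallest p of the list was that of Dut, which removes dUTP, at 489 and 547 CPM (SO+) against 388, 359 and 435 CPM (SO−), a log2 fold change of −0.39 (SE 0.11, adjusted p = 0.0915 from edgeR). Chromatin assembly behind the fork had 9 of 11 genes below 0 and a median of −0.10. Of the 11, 6 were lower and 0 higher in all SO− embryos, beside 15.1% and 14.2% of all genes tested. Chaf1b, a subunit of the histone chaperone CAF-1, had 180.4 and 184 CPM (SO+) against 148, 127 and 146 CPM (SO−). Its log2 fold change was −0.37 (SE 0.12, adjusted p = 0.144 from edgeR). Other fork and origin genes were split, with 14 of 25 below 0 and a median of −0.05. Of the 25, 5 were lower and 5 higher in all SO− embryos, beside 15.1% and 14.2% of all genes tested. Wdhd1, which links the helicase to polymerase alpha, had 99.1 and 107 CPM (SO+) against 78.4, 85.7 and 91.9 CPM (SO−), a log2 fold change of −0.28 (SE 0.13, adjusted p = 0.395 from edgeR). Of 3 other mismatch repair genes 1 was below 0, Msh3, whose product recognises small loops of unpaired bases. It had 56.8 and 51.3 CPM (SO+) against 41.7, 49.1 and 39.8 CPM (SO−), a log2 fold change of −0.34 (SE 0.17, adjusted p = 0.409 from edgeR).

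Of 20 genes of mitosis, 15 had a log2 fold change above 0, with a median of 0.05, and their summed level of 5137 and 4888 CPM (SO+) and 5047, 5031 and 5352 CPM (SO−) overlapped. In 13 of the 20 the groups overlapped, 5 were higher in all SO− embryos and 2 lower, beside 14.2% and 15.1% of all genes tested, and none passed in edgeR. Bub1, a kinase of the spindle checkpoint, and Ccnb1, the mitotic cyclin B1, were the 2 lower ones, and Bub1 had 230.2 and 214 CPM (SO+) against 168, 161 and 203 CPM (SO−) (log2 fold change −0.31, SE 0.12, adjusted p = 0.261 from edgeR). Ccnb1 had 841 and 855 CPM (SO+) against 777, 752 and 763 CPM (SO−) (log2 fold change −0.15, SE 0.09, adjusted p = 0.507 from edgeR). Mki67, a marker of cycling cells, had 144 and 131 CPM (SO+) against 167, 177 and 177 CPM (SO−), higher in every SO− embryo without passing the test (log2 fold change 0.33, SE 0.11, adjusted p = 0.189 from edgeR). Of 18 promoter windows of mitosis genes, 1 held E2F letters (5.56%) and 16 held CCAAT (88.9%). E2F letters were in 0 of 12 windows of nucleotide supply and 7 of 20 of other fork and origin genes (35.0%). For chromatin assembly it was 2 of 12 (16.7%), and for other mismatch repair genes 1 of 4 (25.0%). Genes of the E2F and Rb families had them in 6 of 14 windows (42.9%). Differences in these shares from the replication genes were not tested. Of 13 genes of the E2F and Rb families, 12 were tested and 9 were below 0, with a median of −0.11. E2f5 had the smallest p and was at 65.9 and 84.2 CPM (SO+) against 107, 95.5 and 96.9 CPM (SO−), a log2 fold change of 0.42 (SE 0.15, adjusted p = 0.202 from edgeR). E2f4 and E2f8 differed in the other direction and were lower in all SO− embryos. Of the 12 genes tested, 2 were thus lower and 1 higher without overlap, beside 15.1% and 14.2% of all genes tested. The 2 lower ones are given next. E2f4 and E2f8 had log2 fold changes of −0.30 and −0.40 (adjusted p = 0.224 and 0.344 from edgeR). At an unadjusted p under 0.05, 2 genes of this list were lower and 1 higher. Summed levels of chromatin assembly, nucleotide supply and the E2F and Rb families were lower in every SO− embryo than in either SO+ embryo. The SO− means of these sums were 92.0%, 91.4% and 92.6% of the SO+ mean. Sums of other fork and origin genes (95.1%) and other mismatch repair genes (93.7%) overlapped, as for mitosis. No test was made between these lists and the 46 genes.

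**Figure D5:**
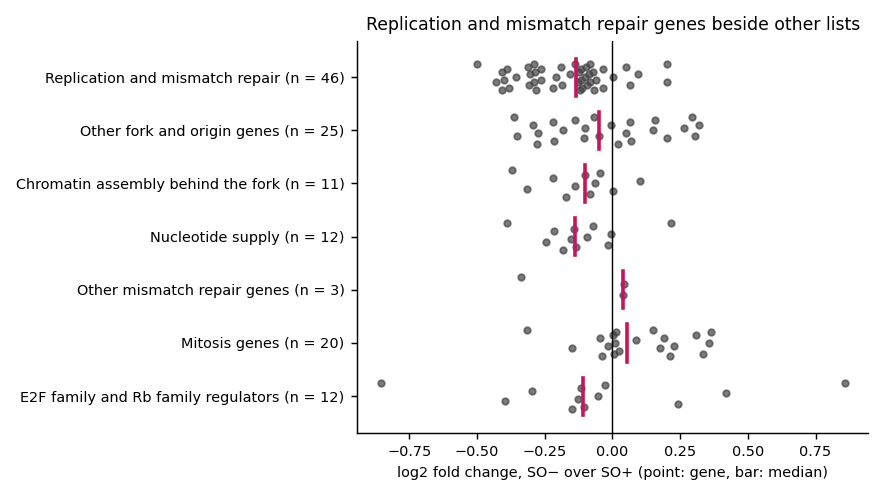
Log2 fold change (SO− over SO+) of each tested gene of the 46 and of the 6 other lists, with the median of each list as a line. The 46 genes have a median of −0.13, nucleotide supply of −0.14 and mitosis genes of 0.05.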

How the data were processed

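RNA of 5 single embryos was made into SmartSeq2 libraries, which carry no molecular identifiers. Per the study's methods, the authors trimmed adapters with cutadapt and aligned the reads with STAR to GRCm38. HTSeq-count then gave reads per Ensembl gene, and the authors deposited these raw counts. The use of strand and the removal of duplicates are not given in the sources used here. Groups were taken from the sample labels, and nothing was left out.

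The deposited counts were tested in R 4.3.3 by the quasi-likelihood test of edgeR 4.0.16 with genotype alone in the model, after TMM scaling and filterByExpr, which kept 12067 genes, with Benjamini-Hochberg adjustment over all of them and a threshold of 0.05. The SE of a log2 fold change was taken as its size over the root of its F statistic. DESeq2 1.42.0, limma-voom (limma 3.58.1), other scalings and filters, thinned SO+ libraries, length and GC trends, the replicate number as a block, and each embryo left out were alternatives. The edgeR step was tested on simulated counts. Coordinates and exon lengths came from GENCODE M21 on GRCm38, which held 99.5% of the genes, and promoter windows from RefSeq on GRCm38.p6. Counting error follows from the totals: 3 counts are 0.109 and 0.111 CPM (SO+) or 0.726, 2.68 and 0.716 CPM (SO−), which covers counting error only.

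The 46 genes and all lists were chosen with earlier results of these data known. Values in every embryo are given for genes with an adjusted p under 0.05, for genes whose groups do not overlap and for the gene with the smallest unadjusted p of each complex, and of other lists for the gene with the smallest p. Others shown per embryo, such as Rrm1, Bub1, Ccnb1, Orc1, Pms2, Exo1, Rpa3, Pold3, Pole2 and Lig1, were added after their values were seen.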

Additional observations from a re-analysis of the deposited data

How the results depend on the processing

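The count of the 46 genes below 0 was between 39 and 42 with each embryo left out, and their median log2 fold change between −0.18 and −0.11. The number of the 46 that passed, all of them lower, was 1 in edgeR, 2 in DESeq2, 0 in limma-voom and between 0 and 2 with each embryo left out (Mcm2 and Msh6 without SO+ embryo 2, none without any of the others). No gene passed as higher under any of these settings. The count over all genes was 283 in edgeR, 91 in limma-voom and between 35 and 573 with each embryo left out, at 573 without SO+ embryo 2, 180 without SO+ embryo 1, 46 without SO− embryo 1 and 35 without SO− embryo 2. With SO− embryos 1 and 2 both left out, chosen after the data were seen, 1 of all genes and 0 of the 46 passed. Leaving out an embryo moved the log2 ratio of the summed level to between −0.21 and −0.0903 for the origin recognition complex, −0.38 and −0.12 for polymerase delta, and −0.56 and −0.18 for polymerase epsilon. The sums of the DDK kinase (−0.20 to 0.01) and the Okazaki enzymes (−0.06 to 0.18) crossed 0. The cause of these changes was not tested.

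Replicate numbers name different animals, and embryos 1 and 2 alone have a number in both genotypes. Same-numbered embryos had deviations correlated at 0.00775 and 0.115, beside −0.133 to 0.133 over the differently numbered pairs. With the replicate block 929 of all genes and 6 of the 46 passed, Mcm2, Mcm4, Pold1, Pold2, Rpa1 and Msh6. With that block the log2 fold changes of Cdc45, Gins3, Lig1 and Cdc7 turned to 0.0296, −0.0323, −0.0392 and −0.0842.

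Of the single genes' values under the alternatives, 736 kept their side of the threshold and direction, and 33 changed sign, in 14 genes that did not pass the test. Cdc7 turned negative in DESeq2 (−0.00131), limma-voom (−0.00654), upper-quartile scaling (−0.0144), unscaled totals (−0.00343), without the filter (−0.0303), with at least 10 counts in every embryo (−0.0141) and with the GC trend removed (−0.0347). Gins1 was at 0.00717 with thinned SO+ libraries. With each embryo left out, the lowest and highest log2 fold changes were −0.13 and 0.0614 for Rfc4, −0.19 and 0.0310 for Orc6, −0.12 and 0.0512 for Cdc45, −0.18 and 0.31 for Gins3, −0.0146 and 0.45 for Pold3, −0.14 and 0.16 for Cdc7, −0.43 and 0.0154 for Pms2, −0.18 and 0.00354 for Rfc5, and −0.0314 and 0.20 for Lig1. With SO− embryos 1 and 2 both left out, Mcm10 was at 0.0541, Gins4 at 0.104, Rfc4 at 0.0123, Rfc5 at 0.0142, Pola1 at 0.00623 and Rpa3 at 0.00337. Depth limits SO− embryo 2 most, in which Pms2 had 19 counts.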
